A study of Rattus norvegicus with 9 samples.

Results

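The genes of the major histocompatibility complex of the rat, named RT1, were followed in the PFC of 9 male Wistar rats. The table of counts holds 54 genes whose symbol begins with RT1-, and the 34 with at least 9 counts summed over the rats were taken as the members. Of these, 28 are typed as mRNA and 6 as ncRNA, and all 34 lie on chromosome 20 in the RefSeq annotation of the GRCr8 assembly. The other 20 RT1 genes stayed below that minimum. The 3 groups of 3 rats were the Control group (A1, A2 and A6), which was not separated, the MS group (B3, B4 and B6), kept from the dams 4 h each day between PND 1 and PND 21, and the MS+EA group (C3, C10 and C16), separated in the same way and given electroacupuncture at GV20 and GV29 between PND 61 and PND 81. Electroacupuncture passes a weak current between acupuncture needles and was given under anaesthesia, which according to the study's methods the rats of the other groups received alone. The labels give an age of 14 weeks and the frontal cortex as the tissue. A sham EA group was not among the sequenced samples, so that the current, the needles and the handling cannot be told apart here.

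Class I molecules are a heavy chain bound to beta-2-microglobulin, sit on nearly all nucleated cells and show peptides from inside the cell to CD8 T cells and natural killer cells. Class II molecules are pairs of an alpha and a beta chain, show peptides taken up from outside to CD4 T cells, and in the brain belong mainly to macrophages at its borders and to activated microglia. The complex is among the most variable parts of the genome between individuals. Rat strains carry different haplotypes that differ in sequence and also in which class I copies they hold, and Wistar rats are outbred. Neither the haplotype nor the litter of any rat is given in the sources used here. The reads had been mapped to Rnor_6.0, which was made from the inbred Brown Norway strain, and reads that fit several near-identical copies may have been split, moved or lost, so that the count of a single RT1 gene is less certain than that of a gene with no copies. Since transcript lengths are not in the table, the levels below are compared between rats and never between genes.

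Between 12479905 and 19007907 counts were deposited per rat, and 1 count equalled between 0.0535 and 0.0795 CPM, the counts per 1000000 counts of the TMM-scaled library and the unit of all levels below. The 3 MS+EA rats had the lowest totals, at most 14913736. Markers of cortical neurons were present in every rat, their 8 genes summing to between 4037 and 5164 CPM. The number of RNA molecules per cell and the number of cells of a type cannot be told apart in such bulk tissue. The p-values set a difference between groups against the spread between these rats, which is estimated in part from all genes together. An exact permutation test of 3 rats against 3 cannot go below p = 0.1.

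Of the 34 members, 22 had enough counts to be tested: 3 of the 4 classical class II genes, 1 of the 3 class II-like genes, 4 of the 8 class I genes of the A and CE series and 14 of the 19 other class I genes. The edgeR quasi-likelihood test with Benjamini-Hochberg adjustment over 16837 genes called 0 of the 22 in MS against Control, with an adjusted p below 0.05 and more than a 1.5-fold change, where 0.0238% of all tested genes were called. It called 0 in MS+EA against MS, with 0.0178% of all genes, and 0 in MS+EA against Control, with 1.37%. At an unadjusted p under 0.05 there were 6 members in MS against Control (5 higher and 1 lower in MS), where 10.6% of all genes reached it. The same count was 6 in MS+EA against MS (2 higher and 4 lower in MS+EA), against 12.4% of all genes, and 1 in MS+EA against Control, the class II gene RT1-Bb, against 22.5%. DESeq2 called 1 member in MS against Control, RT1-O2-ps with an adjusted p of 0.0444, where it called 0.481% of the genes to which it gave an adjusted p. It called 0 members in MS+EA against MS and in MS+EA against Control, where its shares were 0.319% and 2.12%. With every gene of at least 1 count in the edgeR fit, and thus 34 members tested, 1 member was called in each comparison, RT1-O2-ps in the first and second and RT1-Bb in the third, where the shares of all genes called were 0.798%, 0.277% and 1.81%. The median log2 fold change of the 22 was 0.34 in MS against Control, -0.17 in MS+EA against MS and 0.22 in MS+EA against Control, where the medians of all genes were -0.0014, 6e-04 and 0.0055. Any pair of these comparisons shares a group of rats, so that their values are not separate evidence.

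**Figure D1:**
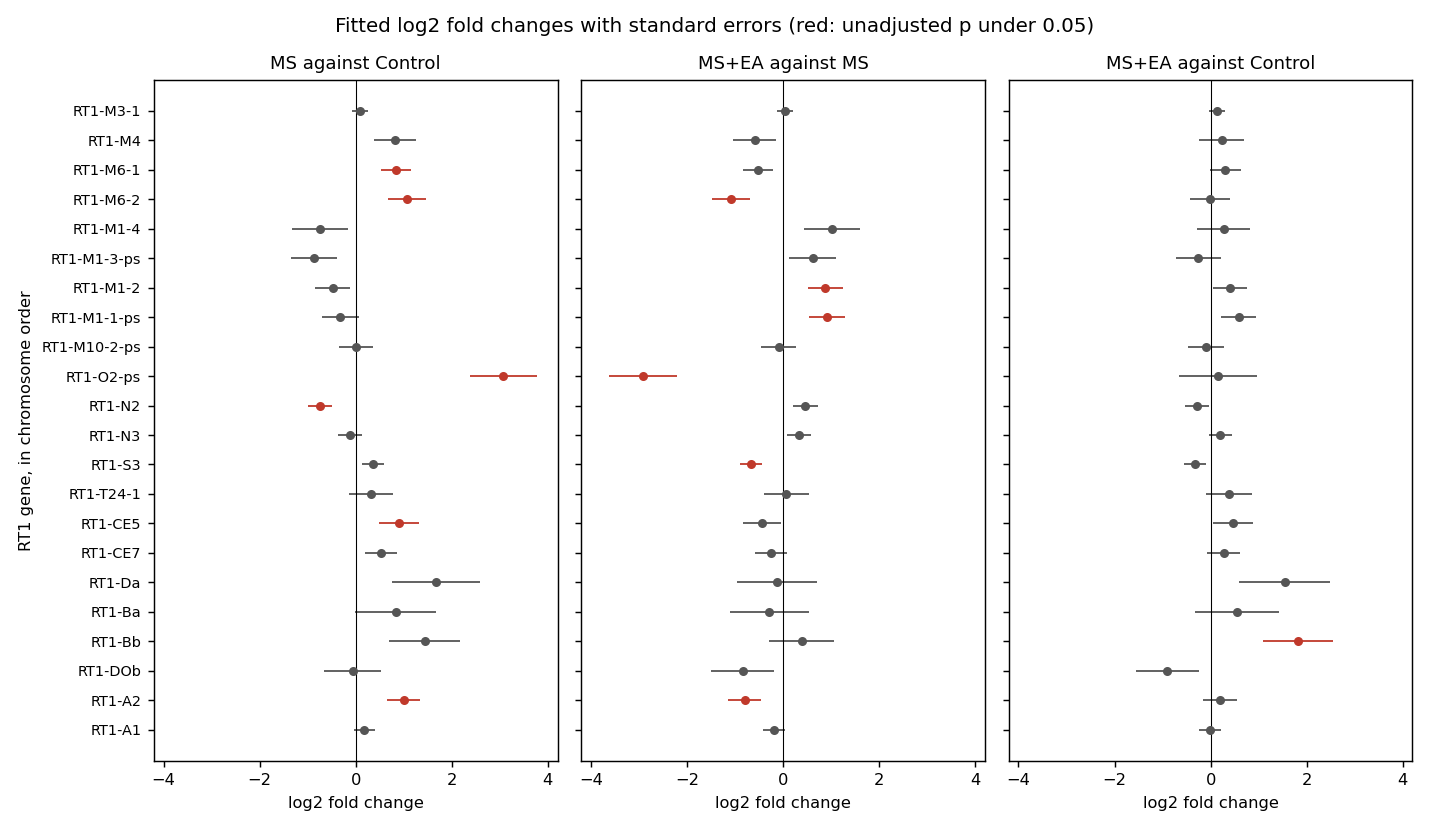
Fitted log2 fold changes (x axis) of the 22 tested RT1 genes, listed in chromosome order, in the 3 comparisons; points are estimates of the edgeR fit over 9 rats, bars their standard errors, and red marks an unadjusted p under 0.05. RT1-O2-ps lies farthest from 0 in MS against Control, at 3.07, and in MS+EA against MS, at -2.91, and lies close to 0 in MS+EA against Control.

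Seen rat by rat, the members varied in 2 separate ways, which the plot of all 22 genes by rat shows. In 10 class I genes the MS rats B4 and B6 were the 2 highest or the 2 lowest, and the third MS rat B3 lay with the others. The margin to the next rat was at least 1.25-fold in 8 of them. It was 1.12-fold in RT1-M6-1 and 1.07-fold in RT1-M1-3-ps. In RT1-Bb, RT1-Da and the sum of the classical class II genes the MS rat B4 and the MS+EA rats C16 and C3 were the highest. These rats were picked out after their values had been seen, and the counts that follow describe them without a test.

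**Figure D2:**
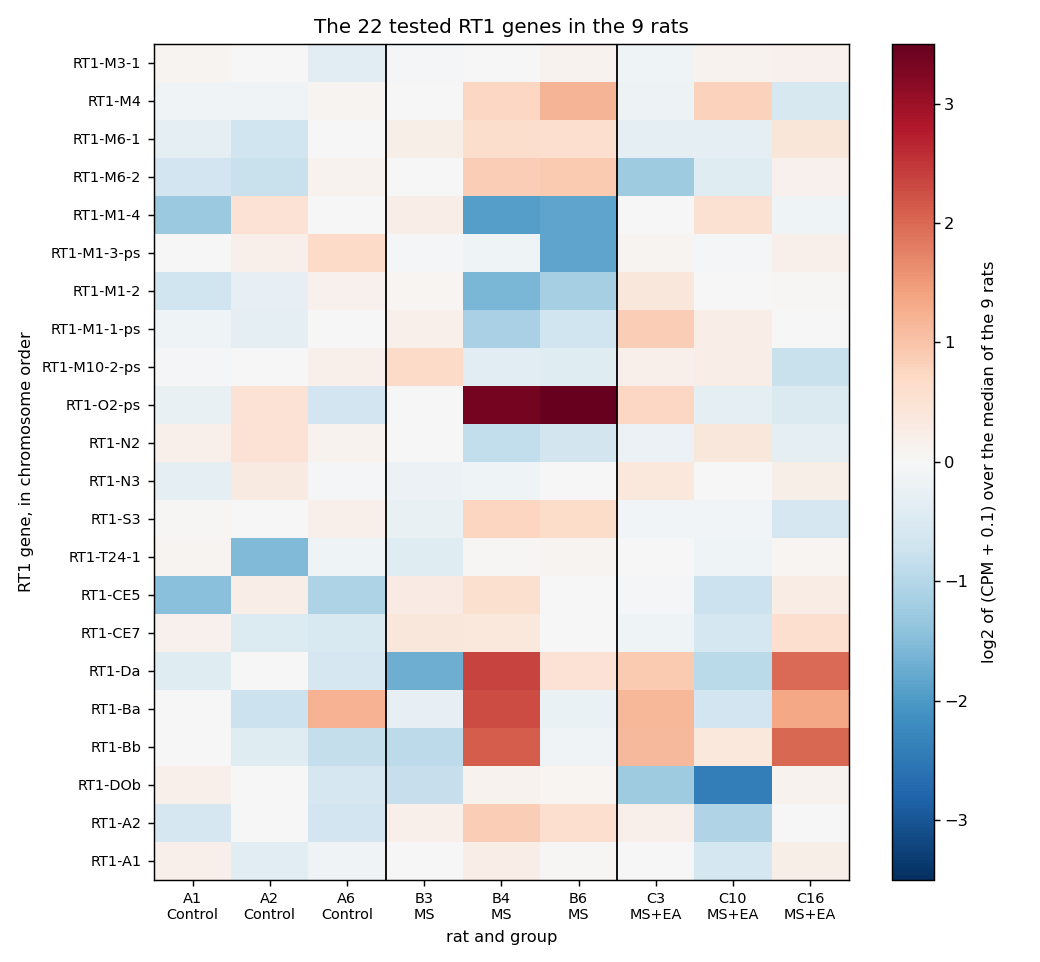
Each cell gives, for 1 RT1 gene (row, in chromosome order) and 1 rat (column, grouped as Control, MS and MS+EA), the log2 of CPM plus 0.1 over the median of the 9 rats, from -2.42 to 3.49. B4 and B6 share the darkest red, in RT1-O2-ps, and the blue of RT1-M1-4, RT1-M1-2 and RT1-M1-1-ps, while B4 and C16 hold the deepest red of RT1-Da, RT1-Ba and RT1-Bb, and C3 and, for RT1-Ba, A6 a lighter red. A1 is also blue in RT1-M1-4.

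The clearest class I member was RT1-O2-ps, whose symbol marks it as a pseudogene. It had 16, 25 and 10 counts in Control (A1, A2, A6), 18, 185 and 213 in MS (B3, B4, B6), and 26, 12 and 9 in MS+EA (C3, C10, C16). In CPM, B4 stood at 11.6 and B6 at 12.8, and the other 7 rats between 0.622 and 1.80, so that the lower of the pair was 6.41-fold above the highest of the rest. The group means were 1.001 ± 0.468 CPM in Control, 8.48 ± 6.46 in MS and 1.11 ± 0.604 in MS+EA (SD, n = 3), and the MS group overlapped both others through B3. The log2 fold change was 3.07 (SE 0.70) in MS against Control, with an adjusted p of 0.146 in the edgeR test, and -2.91 (SE 0.71) in MS+EA against MS, with an adjusted p of 0.205. Each rat was left out in turn, and without B3 the MS group held only B4 and B6, the rats picked out by their values. The edgeR test then called RT1-O2-ps in both comparisons, with adjusted p-values of 0.00284 and 0.00754. Of all tested genes, 0.128% and 0.0175% were called. Because of how B4 and B6 were picked, these calls are no separate support. Without B4 and B6, an omission chosen after seeing the data, the log2 fold change in MS against Control was 0.07.

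The gene next to RT1-O2-ps in the GRCr8 order of the table's genes, Rps2-ps2, a ribosomal protein pseudogene and no member, was close to an on and off pattern. It had 76 counts in B4 and 87 in B6, and between 0 and 3 in each of the other 7 rats. In the whole table it was the 1 gene with at least 30 counts in B4 and in B6 and at most 3 in all others. Genes with counts in both B4 and B6 and 0 in the other 7 rats numbered 45 of the 37209 in the table. Of the 279 table genes between the outermost tested RT1 members, 4 were among them. Of these 4, Rcrg2-ps1 had 15 and 4 counts in B4 and B6, and Rpl41-ps1 had 13 and 2. RT1-DOa, which stayed below the minimum for members, had 1 and 5, and Rcrg1-ps1 had 3 and 3. In each of the 4, B4 or B6 was close to the floor of 3 counts, where 0 in other rats does not show absence.

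The RT1-M1 genes, relatives of the mouse M1 genes that are known from sensory neurons of the vomeronasal organ, went the other way in the same rats. RT1-M1-2 had 76, 90 and 120 counts in A1, A2 and A6, 121, 34 and 49 in B3, B4 and B6, and 127, 100 and 86 in C3, C10 and C16. RT1-M1-4 had 19, 62 and 43 counts in Control, 53, 10 and 11 in MS, and 38, 58 and 30 in MS+EA. B4 and B6 were the 2 lowest rats in both genes, below the lowest other rat by 1.38-fold in RT1-M1-2 and by 1.54-fold in RT1-M1-4. That other rat was the Control rat A1 in both. In RT1-M1-4 A1 had 1.02 CPM, against 0.625 in B4, 0.661 in B6 and 2.385 in the next rat, C16. B4 and B6 were also the 2 lowest in RT1-M1-1-ps, with 13 and 19 counts against 24 to 51 elsewhere, and in RT1-M1-3-ps, with 13 and 3 against 13 to 24. Summed over these 4 neighbouring genes, a value that reads moved between copies would not alter, B4 had 4.38 CPM and B6 4.93. A1 lay between these and the rest at 7.71 CPM, while B3 had 13.2 and the remaining rats lay between 11.8 and 15.96. In MS+EA against MS the log2 fold change was 0.88 (SE 0.36) for RT1-M1-2 and 0.90 (SE 0.38) for RT1-M1-1-ps, with adjusted p-values of 0.353 and 0.354 in the edgeR test.

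RT1-N2 and RT1-S3, which lie on the same side of RT1-O2-ps in the GRCr8 order, diverged in B4 and B6. RT1-N2 had 157, 171 and 128 counts in Control, 126, 64 and 77 in MS, and 92, 146 and 73 in MS+EA. Its level in B4 and B6, 4.003 and 4.63 CPM, was the lowest, and the next rat, C16, had 5.80. RT1-S3 had 233, 197 and 220 counts in Control, 172, 323 and 312 in MS, and 163, 168 and 100 in MS+EA. Here B4 and B6 were the highest, at 20.2 and 18.8 CPM, and B3 was at 10.03, within the range of 7.95 to 13.7 CPM of the other rats. The log2 fold change of RT1-N2 was -0.74 (SE 0.25) in MS against Control with an adjusted p of 0.287, and that of RT1-S3 was -0.68 (SE 0.23) in MS+EA against MS with an adjusted p of 0.286, both by the edgeR test.

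RT1-N3, which lies between this pair, was even across the rats, with 40 to 57 counts and a highest level 1.64-fold above the lowest. RT1-M3-1, of the family that in the mouse presents formylated peptides of bacteria and mitochondria, was even as well, with 104 to 167 counts and a ratio of 1.45. The excess and the deficit in B4 and B6 thus did not extend to every class I gene.

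RT1-M6-1 and RT1-M6-2 are neighbouring non-classical class I genes whose annotated promoters share 96% of their aligned bases. Their transcripts were not compared. RT1-M6-2 had 26, 21 and 40 counts in Control, 39, 67 and 73 in MS, and 13, 25 and 32 in MS+EA. RT1-M6-1 had 28, 19 and 31, then 38, 48 and 49, then 22, 23 and 33 counts in the same order. B4 and B6 led in both, by 1.65-fold over the next rat in RT1-M6-2 and by 1.12-fold in RT1-M6-1. Summed, the pair of genes reached 7.19 CPM in B4 and 7.34 in B6, B3 had 4.49, and the highest other rat, C16, had 5.17. The log2 fold change of RT1-M6-2 was 1.07 (SE 0.39) in MS against Control and -1.09 (SE 0.40) in MS+EA against MS, with adjusted p-values of 0.331 and 0.318 in the edgeR test.

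Of the classical class I genes, which carry the peptides that CD8 T cells read, RT1-A2 followed B4 and B6 and RT1-A1 did not. RT1-A2 had 32, 43 and 26 counts in Control, 51, 78 and 67 in MS, and 43, 18 and 33 in MS+EA. B4 and B6 stood at 4.88 and 4.03 CPM, the next rat C3 at 2.98 and B3 at 2.97. RT1-A1 had 51 to 112 counts, with 3.42 to 6.19 CPM, and its log2 fold change in MS against Control was 0.18 (SE 0.23). For RT1-A2 that value was 0.995 (SE 0.34), with an adjusted p of 0.292 in the edgeR test. RT1-CE5 varied otherwise: the Control rats A1 and A6 were the lowest, at 1.12 and 1.49 CPM, and B4 the highest, at 4.82. Its log2 fold change was 0.90 (SE 0.41) in MS against Control, with an adjusted p of 0.462, and RT1-CE7 ranged from 1.54 to 3.66 CPM without B4 and B6 at either end.

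The promoters of RT1-A2 and RT1-N2 are shown because B4 and B6 were the highest rats for the one gene and the lowest for the other, while both windows hold CCAAT and GAANNGAAA. They are RefSeq windows of 300 bases on GRCr8, 250 before and 50 after the start of the gene, 5′ to 3′ on the strand of the gene, with RT1-A2 at chr20:4872621-4872920 on the plus strand and RT1-N2 at chr20:2646080-2646379 on the plus strand. Capitals mark CCAAT, the core of the Y box, TGACG, a part of the X2 element, and GAANNGAAA, the core bound by interferon regulatory factors, each searched on both strands, so that the reverse complement is also in capitals.
RT1-A2: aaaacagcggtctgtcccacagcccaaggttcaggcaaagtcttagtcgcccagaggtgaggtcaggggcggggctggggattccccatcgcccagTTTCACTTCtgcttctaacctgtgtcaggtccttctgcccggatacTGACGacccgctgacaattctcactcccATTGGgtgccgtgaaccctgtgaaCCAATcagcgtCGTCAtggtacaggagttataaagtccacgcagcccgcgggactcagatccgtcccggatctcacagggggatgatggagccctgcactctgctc
RT1-N2: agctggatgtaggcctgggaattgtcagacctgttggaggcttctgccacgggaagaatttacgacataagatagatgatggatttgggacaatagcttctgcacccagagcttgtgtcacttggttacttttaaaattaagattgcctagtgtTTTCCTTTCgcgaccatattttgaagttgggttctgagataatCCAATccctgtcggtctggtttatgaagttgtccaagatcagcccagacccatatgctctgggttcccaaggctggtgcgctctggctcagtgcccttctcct

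A promoter was given for 24 members, 15 of them tested. GAANNGAAA was found in 6 of the 6 promoters of the A and CE series and in 1 of 12 of the other class I genes, that of RT1-N2, while 8.54% of all 33469 rat promoters of this length held it. The 6 promoters shared 53.9% to 83.1% of aligned bases between any pair, so that their matches may not be separate occurrences. The lowest value, of RT1-CE4 and RT1-A1, is no higher than that of some pairs from different series, such as RT1-M6-2 and RT1-CE4 at 56%. In RT1-A2 the first base of GAANNGAAA, read along the gene, lies 154 bases before the start and in RT1-N2 96 bases before it. TGACG was found in 2 of 6 and 3 of 12, against 21.2% of all promoters, and CCAAT in 6 of 6 and 7 of 12, against 37.5%. These are matches of letters in the reference assembly and not in the genomes of these rats.

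**Figure D3:**
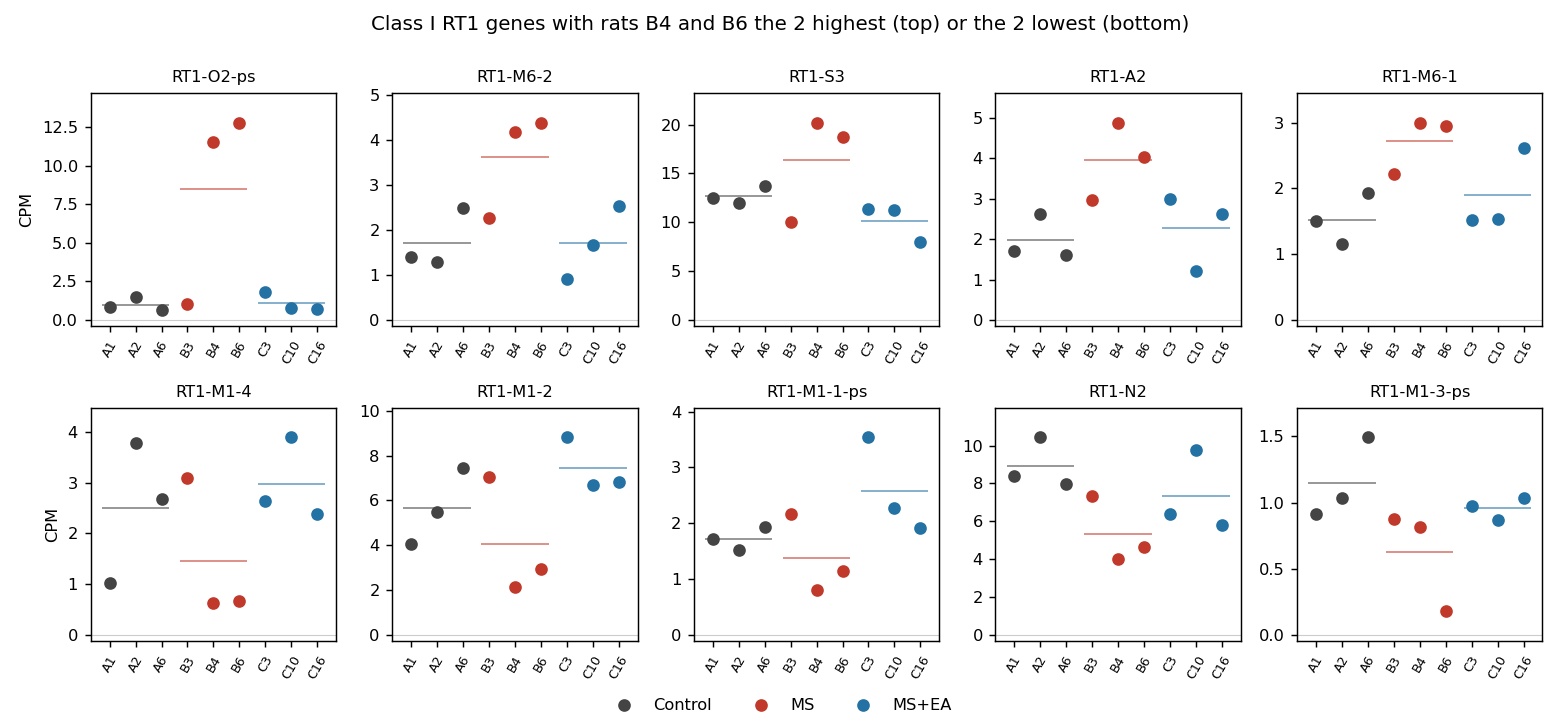
CPM of 10 class I RT1 genes (y axes, starting at 0) in the 9 rats (x axes), 1 point per rat, coloured by group, with a line at each group mean; the axes differ between panels. B4 and B6 are the 2 highest rats in the upper row, most clearly in RT1-O2-ps at 11.6 and 12.8 CPM, and the 2 lowest in the lower row, where B3 lies with the other rats. In RT1-M1-4 the Control rat A1 lies close to B4 and B6.

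Counted over the 22 tested members, B4 and B6 were the 2 highest rats in 5 and the 2 lowest in 5, together 45.5%. Over all 16837 tested genes B4 and B6 were the 2 highest in 2.87%, the 2 lowest in 3.53% and either in 6.4%. In 8 members they were beyond every other rat by at least 1.25-fold, a margin set after the values had been seen and met by 0.558% of all genes. Among the 83 other tested genes that lie between the outermost tested members on the chromosome, of which 75 are mRNA, B4 and B6 were the 2 highest or 2 lowest in 12, or 14.5%, and 0 reached 1.25-fold. Rps2-ps2, where B4 and B6 were 19.9-fold or more above every other rat, lies in this stretch but is not among the 83. It did not pass the filter for testing, and neither did Rcrg2-ps1 and Rpl41-ps1. The count over the 83 thus leaves out genes with reads almost only in B4 and B6. The 83 include Tap1, with B4 and B6 highest, and Znrd1as1, an antisense RNA near RT1-M6-2 in the GRCr8 order, with 74 and 93 counts in B4 and B6 and 89 to 138 elsewhere.

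The sum of all 27 class I members moved less than the single genes. It was 59.8, 67.4 and 64.7 CPM in Control, 68.3, 83.1 and 82.3 in MS, and 68.1, 65.0 and 64.6 in MS+EA. Without RT1-O2-ps the sum was 71.5 CPM in B4 and 69.5 in B6, and between 58.9 and 67.2 in the other rats. B4 and B6 thus stayed the highest rats in both sums. The sums add reads of copies in which these rats were high and of others, such as the RT1-M1 genes and RT1-N2, in which they were low. A sum over many genes tends to move less than its single genes, and gene length is not corrected in it.

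The classical class II genes are RT1-Ba and RT1-Bb, the alpha and beta chains of the B molecule, and RT1-Da and RT1-Db1, the alpha and beta chains of the D molecule. The promoters of the 3 tested genes, RT1-Ba, RT1-Bb and RT1-Da, are printed because B4 was the highest rat and C16 the next in each. The windows are those described for class I, with RT1-Ba at chr20:4576807-4577106 on the plus strand, RT1-Bb at chr20:4604069-4604368 on the minus strand and RT1-Da at chr20:4515165-4515464 on the plus strand, and the capitals mark the same letters.
RT1-Ba: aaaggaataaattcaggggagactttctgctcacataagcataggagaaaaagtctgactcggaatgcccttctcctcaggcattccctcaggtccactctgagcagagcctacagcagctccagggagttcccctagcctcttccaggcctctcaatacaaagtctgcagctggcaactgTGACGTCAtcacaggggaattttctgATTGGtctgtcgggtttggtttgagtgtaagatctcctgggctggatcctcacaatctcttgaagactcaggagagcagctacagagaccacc
RT1-Bb: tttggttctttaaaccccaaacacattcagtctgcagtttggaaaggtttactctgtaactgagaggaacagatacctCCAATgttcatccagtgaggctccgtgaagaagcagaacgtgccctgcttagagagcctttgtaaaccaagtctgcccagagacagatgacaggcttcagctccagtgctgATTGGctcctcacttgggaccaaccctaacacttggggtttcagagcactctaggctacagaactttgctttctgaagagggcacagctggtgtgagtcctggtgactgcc
RT1-Da: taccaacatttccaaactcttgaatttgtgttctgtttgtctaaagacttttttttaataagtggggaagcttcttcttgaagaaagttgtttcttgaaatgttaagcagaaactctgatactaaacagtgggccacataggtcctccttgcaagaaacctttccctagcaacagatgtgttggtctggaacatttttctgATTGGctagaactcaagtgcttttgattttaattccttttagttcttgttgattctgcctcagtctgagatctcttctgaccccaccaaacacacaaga

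All 4 classical class II promoters held CCAAT, against 37.5% of all promoters. So did 2 of 2 class II-like promoters and 6 of 6 of the class I A and CE series. The Y box, of which CCAAT is the core, is known as a conserved element of class II promoters. A match of these letters alone does not show a Y box. In the same windows 1 promoter of the 4, that of RT1-Ba, held TGACG, against 21.2% of all promoters. It lies in a palindrome whose matches on the 2 strands overlap. The first base of the CCAAT match nearest to the start lies 43 bases before it in RT1-Ba, 61 in RT1-Bb and 49 in RT1-Da, each time on the opposite strand. GAANNGAAA was found in 0 of 4, against 8.54% of all promoters.

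RT1-Bb had 16, 10 and 7 counts in Control (A1, A2, A6), 7, 65 and 13 in MS (B3, B4, B6), and 29, 17 and 47 in MS+EA (C3, C10, C16). RT1-Da had 8, 10 and 6 counts in Control, 2, 57 and 15 in MS, and 18, 4 and 34 in MS+EA. RT1-Ba had 7, 3 and 16 counts in Control, 5, 35 and 5 in MS, and 14, 3 and 14 in MS+EA. B4 was the highest rat and C16 the next in all 3 genes, and the Control rats lay low in RT1-Bb, where the highest of them had 0.856 CPM and the lowest MS+EA rat, C10, had 1.14. In RT1-Ba the Control rat A6, at 0.995 CPM, stood beside C3 and C16, at 0.971 and 1.11 CPM. RT1-Db1, at 7 counts or fewer in every rat, was also highest in B4.

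In MS+EA against Control, RT1-Bb had 2.30 ± 1.32 CPM in MS+EA and 0.634 ± 0.212 in Control (SD, n = 3), a log2 fold change of 1.82 (SE 0.74) with an adjusted p of 0.165 in the edgeR test. Its value in MS against Control was 1.43 (SE 0.74, adjusted p 0.518), and without B4 it was -0.11. RT1-Da gave 1.67 (SE 0.92, adjusted p 0.539) in MS against Control, 0.10 without B4, and 1.54 (SE 0.94, adjusted p 0.36) in MS+EA against Control. RT1-Ba gave 0.83 (SE 0.84, adjusted p 0.773) in MS against Control and -0.78 without B4. The direction of RT1-Ba and RT1-Bb in MS against Control therefore rested on B4.

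Cd74, the invariant chain that accompanies class II molecules, was 1.39, 1.65 and 1.31 CPM in Control, 1.11, 12.4 and 2.83 in MS, and 5.27, 1.81 and 8.58 in MS+EA. The order of its highest rats, B4, C16 and C3, was that of the summed classical class II genes, which stood at 10.3, 7.63 and 4.44 CPM in these rats and between 0.875 and 2.17 in the others. Its log2 fold change was 1.898 (SE 0.73, adjusted p 0.374) in MS against Control and 1.83 (SE 0.74, adjusted p 0.164) in MS+EA against Control by the edgeR test. Ciita, the master activator of class II genes, had 3 to 9 counts per rat, too few to be tested, and Ctss, a protease that trims the invariant chain, lay between 84.0 and 128 CPM.

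**Figure D4:**
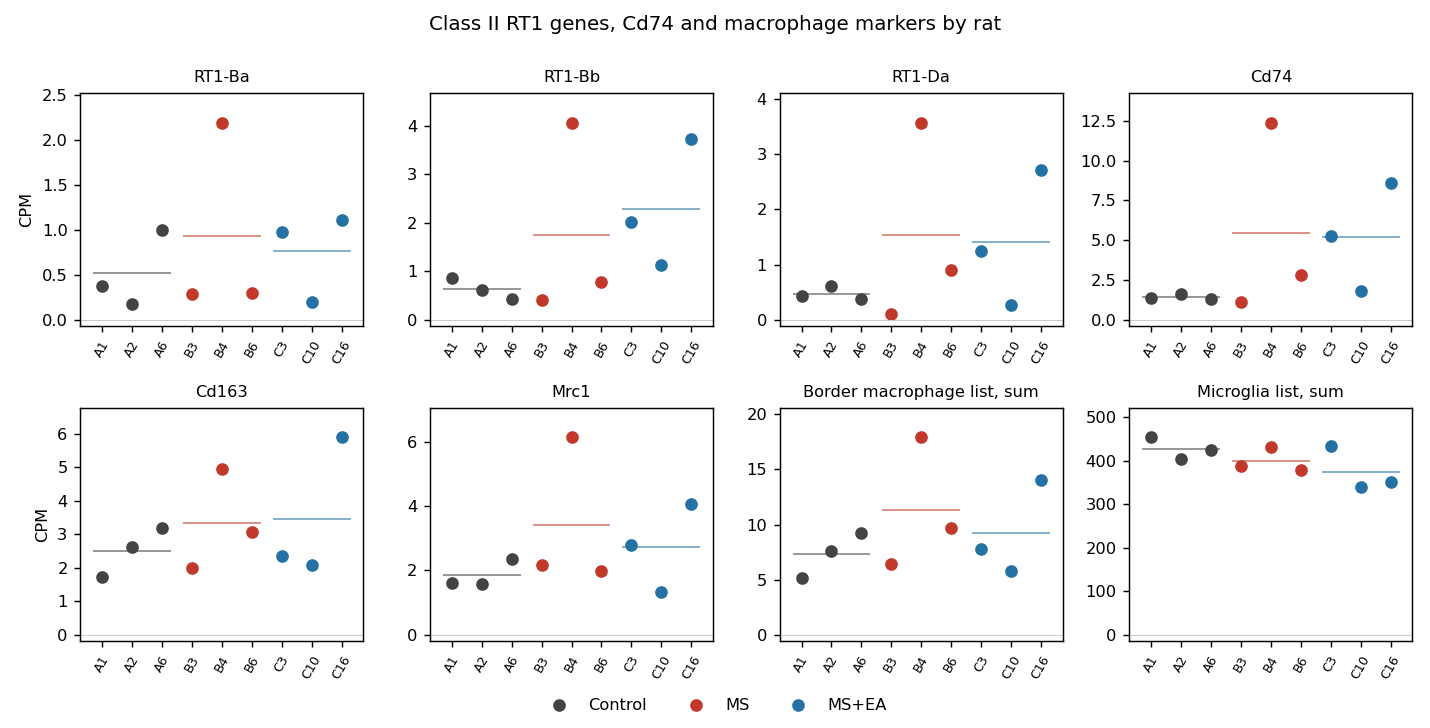
CPM of RT1-Ba, RT1-Bb, RT1-Da, Cd74, the macrophage markers Cd163 and Mrc1, and the summed border macrophage and microglia lists (y axes, starting at 0) in the 9 rats (x axes), 1 point per rat, coloured by group, with a line at each group mean. Of the 6 border macrophage markers, the 2 drawn are those whose 2 highest rats are B4 and C16. Lyve1, highest in B4 and B6, and the untested Folr2, Pf4 and Cd209a are not drawn. B4 is the highest rat in the 4 upper panels and C16 the next, B4 and C16 are also the 2 highest in the border macrophage sum, at 17.9 and 14.1 CPM, and the microglia sum does not follow them.

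Of the 6 border macrophage markers, Cd163 and Mrc1 had B4 and C16 as the 2 highest rats, as RT1-Ba, RT1-Bb and RT1-Da did, and 0 of the 3 tested were called in any comparison by the edgeR test or by DESeq2, with 0 at an unadjusted p under 0.05. That p was reached by 10.6%, 12.4% and 22.5% of all genes in the 3 comparisons, and the shares called are given above. The 6 genes summed to 17.9 CPM in B4 and 14.1 in C16, and to between 5.19 and 9.68 in the other 7 rats, C3 included at 7.77. Cd163 and Mrc1 are scavenger and mannose receptors of these cells. Lyve1 was highest in B4 and B6, and of the markers too low to be tested Folr2 was highest in B4 and A2, Pf4 in C16 and B6, and Cd209a was at 0 in every rat. The 14 microglia markers summed to between 339 and 453 CPM, with B4 at 431 and C16 at 351. Lymphocyte markers were near 0, with Cd79a at 0 in every rat, apart from Cd4, which microglia of the rat also carry, and red cell genes summed to 219 CPM in B4, 215 in C16 and 67.8 to 184 elsewhere. Their part in the class II values was not tested. B6, which shares the class I pattern with B4, had a border macrophage sum of 9.68 CPM, the highest after B4 and C16, with A6 next at 9.26. Its classical class II sum was 2.17 CPM, the highest after B4, C16 and C3. The 8 endothelial markers summed to 265 CPM in B4, 235 in B3 and 218 in B6, and to between 170 and 226 in the other 6 rats. All 8 had a positive log2 fold change in MS against Control, where the median of all genes was -0.0014. By the edgeR test 3 had an unadjusted p under 0.05, against 10.6% of all genes, and 0 were called, against 0.0238%. DESeq2 called 1, Kdr, a receptor for vascular growth factor, where it called 0.481% of the genes to which it gave an adjusted p. Kdr had its 2 highest levels in B4 and B6, 59.8 and 41.9 CPM, with 20.5 to 40.0 in the others. The part of border macrophages and endothelial cells in the RT1 values was not tested.

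The class II-like genes take part in the loading of peptides inside the cell. RT1-DOb, a chain of the DO molecule, had 17, 13 and 8 counts in Control, 7, 14 and 14 in MS, and 4, 1 and 11 in MS+EA, so that A1 was the highest rat, at 0.910 CPM, B4 and C16 followed at 0.876 and 0.874, and C10 was the lowest, at 0.067. Its log2 fold change was -0.90 (SE 0.66, adjusted p 0.449) in MS+EA against Control. RT1-DMa and RT1-DMb, the chains of the DM molecule, had 2 to 11 and 1 to 4 counts and were not tested.

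Presence in some rats only was counted where a rat had 3 counts or fewer and another had 30 or more. Among the 19 members with a rat at 30 counts, RT1-Ba (at 3 counts in A2 and C10, and at 35 in B4) and RT1-Da (at 2 in B3, and at 57 in B4 and 34 in C16) met it, where 0.844% of all such genes of the table did. Genes with low counts meet this rule more easily, and the share over the table was not taken at like abundance. The rats at 3 counts or fewer differed between RT1-Ba and RT1-Da, and no RT1 member was at 0 in some rats and at 30 counts or more in others.

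The spread between rats of a group was set against that of genes of like abundance by dividing the dispersion of each gene, estimated without sharing between genes, by the trend. The ratio was above the 95th percentile of all tested genes, 3.35, in 6 of the 22 members, or 27.3%, where by construction 5% of all genes are. These were RT1-O2-ps at 10.5, RT1-Da at 9.72, RT1-Ba at 7.20, RT1-Bb at 6.18, RT1-M1-4 at 5.66 and RT1-M1-2 at 4.17. Without B3, or with the added omission of B4 and B6, 3 members were above the percentile. The median was 1.61 over the members and 0.54 over all genes, and 18 members were above the latter. RT1-N3 was the least variable member, at 0.0876. Of the 83 other tested genes in the stretch, 2 were above the 95th percentile, the complement gene C2, at 6.05, with 229 counts in B4, 197 in C16 and 68 to 126 elsewhere, and Mog, a myelin gene, at 4.01.

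**Figure D5:**
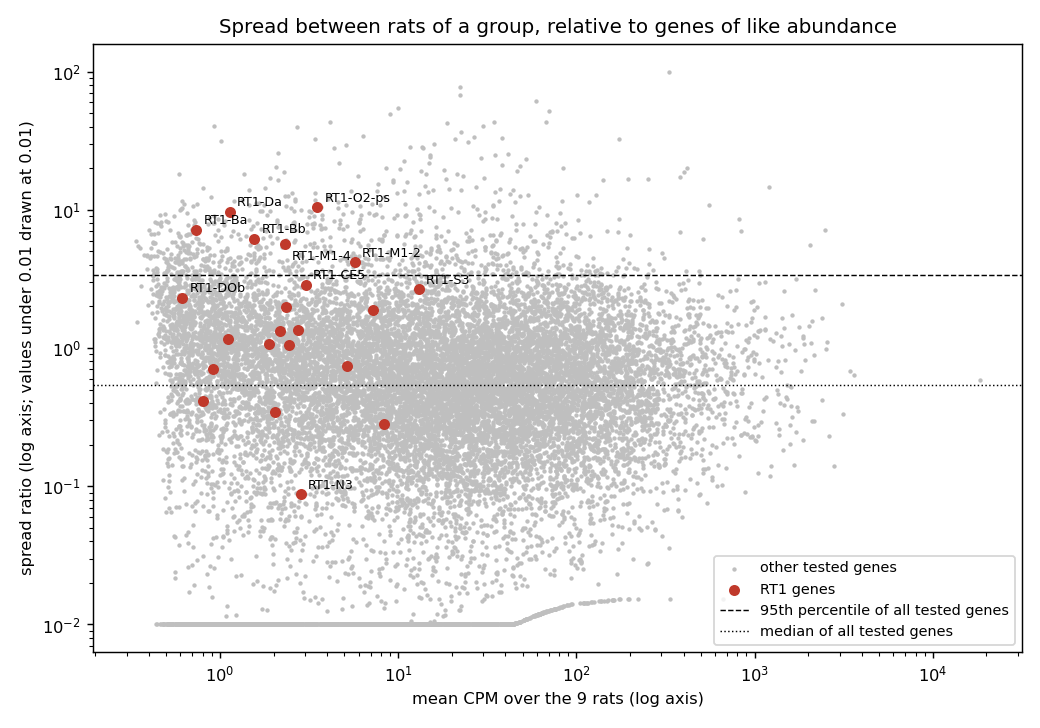
Spread ratio (y axis, log scale, values under 0.01 drawn at 0.01) against mean CPM over the 9 rats (x axis, log scale) for the 16837 tested genes, RT1 genes in red. Of the RT1 genes, 6 lie above the dashed 95th percentile of 3.35 and 18 above the dotted median of 0.54.

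B2m, the light chain of class I molecules, lay between 99.0 and 138 CPM, with a spread between rats at the 89.6th percentile of all tested genes and a log2 fold change of 0.15 (SE 0.11) in MS against Control. Tap1, which carries peptides to class I molecules, lay between 2.20 and 4.003 CPM, and B4 and B6 were its 2 highest rats, above A1, B3 and C3 by less than 1 CPM. Tap2 had 1 to 7 counts per rat. Nlrc5, the activator of class I genes, lay between 1.12 and 2.43 CPM, with 1.31 in B4 and 1.14 in B6, and its log2 fold change was 0.67 (SE 0.31, adjusted p 0.394) in MS+EA against MS. Among the 13 tested genes of class I presentation, the 6 of class II presentation, the 5 class I-like genes outside RT1 and the 20 interferon response genes, 0 were called in any comparison by the edgeR test or by DESeq2. The edgeR test called 0.0238% of all tested genes in MS against Control, 0.0178% in MS+EA against MS and 1.37% in MS+EA against Control, and DESeq2 0.481%, 0.319% and 2.12%. An unadjusted p under 0.05 in the edgeR test was reached by 10.6%, 12.4% and 22.5% of all genes in this order. Beside these shares the class I list had 1, 2 and 3 genes, the class II list 1, 0 and 1, the class I-like list 0, 0 and 1, and the interferon list 1, 0 and 0. The median of the interferon list, as a log2 fold change, was 0.05, -0.02 and 0.06 in the same order.

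Of the remaining tested members, RT1-M4 had 7 to 35 counts, with B6 highest and C16 lowest and a 3.78-fold range in CPM. RT1-M10-2-ps had 15 to 59 counts, with B3 highest and a 2.89-fold range, and RT1-T24-1 had 4 to 18, with A2 lowest. Apart from RT1-Db1, RT1-DMa and RT1-DMb, the members too low to be tested were RT1-M5, with 0 to 12 counts per rat, RT1-CE4, with 2 to 10, RT1-CE9-ps1, with 0 to 8, RT1-M10-4-ps, with 2 to 6, and RT1-S2, RT1-T24-4, RT1-T24-3, RT1-CE10 and RT1-CE3, with at most 5. RT1-M5 had 0 counts in A1 and C3, 12 in B6 and 9 in A6 and C10. None of these members entered the main test.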

How the data were processed

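The authors sequenced rRNA-depleted RNA of the PFC on a Illumina HiSeq instrument, mapped the reads to Rnor_6.0 with HISAT2 2.0.4 and deposited whole-number counts per gene, without normalization, for 37209 genes; the counting program, its strand setting and its treatment of reads with several locations are not given in the sources used here. Groups were taken from the labels. RT1 genes with at least 9 counts in all were the members; they, the gene lists and the alternatives were chosen with earlier results of these data known. Counts were analysed with edgeR 4.0.16 in R 4.3.3 (TMM, filterByExpr with a minimum count of 10, quasi-likelihood fit of 9 rats with a mean per group, Benjamini-Hochberg adjustment over 16837 genes). A call needed an adjusted p under 0.05 and a fold above 1.5. The procedure was tested on simulated data. Alternatives included DESeq2 1.42.0. Every member that passed the filter or had 30 counts in a rat was named, as were, of the lists, Cd74, Ciita, B2m, Tap1, Tap2, Nlrc5 and the most abundant genes; Rps2-ps2 and its neighbours, Znrd1as1, C2, Mog and Kdr were chosen after their values were seen. GRCr8 tables gave gene order and promoters. Counting floors of 3 cover counting error only.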

Additional observations from a re-analysis of the deposited data

How the results depend on the processing

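No paired analysis was possible because every rat belongs to 1 group and the labels tie none to another. The 0 members called became 1 in MS against Control with DESeq2 and with all genes of at least 1 count, and 1 in MS+EA against MS with that wider filter, each time RT1-O2-ps, and 1 in MS+EA against Control with it, RT1-Bb, with an adjusted p of 0.0341; the wider filter raised the calls over all genes from 4 to 207, from 3 to 72 and from 230 to 469. Leaving out each rat gave 0 to 1, the 1 being RT1-O2-ps without B3, where MS held only B4 and B6. With RLE or total counts, the stricter filter, no fold threshold or the 2 groups alone it stayed 0. Members present in some rats only numbered 1 at limits of 0 and 10 counts, 0 at 3 and 100, and 1 to 2 with a rat left out. Members above the 95th percentile of spread numbered 6 as reported, 3 with at least 10 counts in every rat and 3 to 6 with a rat left out. The adjusted p of RT1-O2-ps in MS against Control ranged from 7.74e-05 to 0.9997 over all alternatives.

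Without B4 and B6, chosen after seeing the data, 0 members were called, 1 was present in some rats only and 3 were above the 95th percentile; MS was then 1 rat, assumed to vary like the other groups. Log2 fold changes in MS against Control turned to -0.80 for RT1-Ba, -0.64 for RT1-Bb and -1.94 for RT1-Da, and in MS+EA against MS to 0.082 for RT1-O2-ps, 1.34 for RT1-Ba, 3.48 for RT1-Da and 0.022 for RT1-S3. Leaving out 1 rat also reversed class II values, over ranges of -0.78 to 1.67 for RT1-Ba and -0.11 to 1.903 for RT1-Bb in MS against Control, and of -0.72 to 1.33 for RT1-Ba, -1.0001 to 1.45 for RT1-Da and -0.14 to 1.93 for RT1-Bb in MS+EA against MS. Depth limits the class II genes, where single rats had 2 to 5 counts. The cause was not tested.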
